A study of Mus musculus with 8 samples.

Results

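The Hippo pathway was examined through 8 of its genes, chosen by symbol among the primary-chromosome rows of the deposited expression table. The 8 genes encode the coactivators Yap1 and Wwtr1 (also called Taz), the DNA-binding factors Tead1 and Tead2, the kinases Lats1 and Lats2, and the regulators Amotl2 and Ajuba. All 8 were found, out of 52778 rows in all, each on 1 row of a primary chromosome, and all 8 passed the filter of a mean of at least 1 TPM (transcript abundance per length, scaled to the same total in each library). In brief, none of the 8 genes passed the test between knockout and control ventricles with TPM as deposited. Ajuba came closest and was called under other scalings of the libraries. Several genes of a published YAP/TAZ target signature were higher in the knockout, among them Ptpn14, and Igfbp3 was lower. Of the signature genes called higher, Ptpn14 alone kept its call whichever single library was left out. The number called in the signature fell from 8 to between 2 and 4 in those fits. Its genes, like the other lists, were chosen with earlier results of these data known.

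RNA sequencing was carried out on ventricles dissected from mouse embryos at embryonic day 11.5. The 4 knockout libraries (cKO) are labelled as Rps19bp1 fl/fl with Xmlc2-Cre +/−, so that Cre acts in cardiomyocytes and leaves the gene in the other cells of the ventricle. The other 4 libraries are labelled control only, so whether the control embryos carried the floxed alleles or Cre is not stated, and nothing says whether embryos were pooled. The labels disagree in places: a wild-type C57BL/6 genotype is entered for all 8 libraries, the extraction text speaks of cortical neurons, and libraries are described as made after removal of ribosomal RNA in one place and with an mRNA kit in another. The series text calls the 4 replicates per genotype biological, and all carry 1 batch number.

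The labelled tissue was checked with marker genes. Summed over 12 cardiomyocyte markers, cKO libraries held 32038 to 33710 TPM and control libraries 32385 to 35988 TPM. Among 10 neuronal markers the median lay between 0.317 and 0.499 TPM, Neurod6 was listed at 0 in every library, and 6 of the 10 stayed under 1 TPM throughout. Tubb3 (3.45 to 12.1 TPM) and Nefl (2.18 to 4.47 TPM) were above 1 TPM in every library, as was Camk2a, at a mean of 114 TPM in cKO and 117 TPM in control. The targeted gene Rps19bp1 (chr15:80260614-80264306) stood at 14.96 ± 3.14 TPM in cKO and 39.9 ± 3.93 TPM in control (SD, n = 4), which is 37.5% of the control level (limma adjusted p = 0.000508). The rows at 1 TPM or more numbered 15336 to 15752 across libraries. The number of reads behind each value is unknown, because TPM keeps no depth.

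As background, the Hippo pathway is a kinase cascade that restrains organ growth. The kinases Stk3 and Stk4 (Mst2 and Mst1), with their adaptor Sav1, activate Lats1 and Lats2, which phosphorylate Yap1 and Wwtr1 and so keep them in the cytoplasm, where they can be degraded. Unphosphorylated Yap1 and Wwtr1 enter the nucleus, bind TEAD factors and switch on genes such as Ccn1, Ccn2 and Ankrd1. In the embryonic heart, loss of the upstream kinases enlarges the ventricle through excess cardiomyocyte division, while loss of Yap1 leaves its wall thin. The pathway is controlled largely by phosphorylation and by where proteins lie in the cell, and neither is measured by RNA levels.

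TEAD factors bind the motif GGAATG, which reads CATTCC on the other strand. Promoter sequence was therefore examined for the genes on which the results turn, using the RefSeq promoter table (build GRCm38.p6). The 250 bases before each annotated start were searched for GGAATG on both strands. Of the 8 genes, 7 had an entry in that table, and 4 of these held a match: Yap1, Wwtr1, Amotl2 and Ajuba. Of 22 signature genes 15 had an entry and 6 held a match, among them Amotl2. The motif occurred in 12.6% of all 32851 promoter windows, and in 1.023% there were at least 2 matches, as in Ajuba and Ankrd1. Some genes have several windows. The Amotl2 match lies inside the span of its own row in the table, which begins further upstream, and the other matches printed lie before their gene's row. A match is a description of the sequence, not evidence of binding. Each match is shown with its flanks, 5′ to 3′ on the strand of the gene, with the motif in capitals, so that the sites of the coactivator genes can be set beside those of known targets.
Yap1, chr9:8004725-8004744, minus strand: gtctgcaGGAATGtagcgac
Wwtr1, chr3:57576034-57576053, minus strand: actcaaaGGAATGcagatag
Amotl2, chr9:102717732-102717751, plus strand: actctcaCATTCCtggcata
Ajuba, chr14:54577835-54577854, minus strand: atggataCATTCCacagtgc
Ajuba, chr14:54577813-54577832, minus strand: ctccgcgCATTCCaactgta
Ankrd1, chr19:36120042-36120061, minus strand: tgccaaaGGAATGaccctct
Ankrd1, chr19:36119955-36119974, minus strand: taagtctGGAATGaaaattc
Axl, chr7:25788954-25788973, minus strand: ttctacaGGAATGtttacca
Crim1, chr17:78200162-78200181, plus strand: gggggggGGAATGaggtagg
Ccn1, chr3:145650076-145650095, minus strand: caaccaaCATTCCtgagatg
Ptpn14, chr1:189728115-189728134, plus strand: ccggacgCATTCCtggcccg

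The promoter stretches of 3 genes are given at length, because Ajuba had the smallest p among the 8 genes, Yap1 is the coactivator at the centre of the pathway, and Ptpn14 kept its call under all 18 alternatives. Each stretch ends where the gene's row in the deposited table begins, and capitals mark the same motif. The RefSeq annotated start comes directly after the Ajuba stretch. For Yap1 and Ptpn14 it lies inside the gene's row, so their stretches were cut short of it. The matches in Ajuba begin 186 and 164 bases before the annotated start, that in Yap1 begins 141 bases before it, and that in Ptpn14 146 bases before it. Counted to the end of the stretch shown, the Yap1 and Ptpn14 distances are therefore shorter.
Ajuba, chr14:54577662-54577911, minus strand: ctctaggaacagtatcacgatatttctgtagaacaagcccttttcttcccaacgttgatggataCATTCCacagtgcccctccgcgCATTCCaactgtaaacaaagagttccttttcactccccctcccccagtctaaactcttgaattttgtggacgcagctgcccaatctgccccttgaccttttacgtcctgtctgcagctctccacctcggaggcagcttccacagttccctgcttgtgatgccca
Yap1, chr9:8004639-8004846, minus strand: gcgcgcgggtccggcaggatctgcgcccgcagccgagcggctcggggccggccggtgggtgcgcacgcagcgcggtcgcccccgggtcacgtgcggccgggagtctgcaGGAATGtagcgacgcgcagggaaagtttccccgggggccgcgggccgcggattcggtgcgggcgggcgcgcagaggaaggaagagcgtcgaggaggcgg
Ptpn14, chr1:189728018-189728215, plus strand: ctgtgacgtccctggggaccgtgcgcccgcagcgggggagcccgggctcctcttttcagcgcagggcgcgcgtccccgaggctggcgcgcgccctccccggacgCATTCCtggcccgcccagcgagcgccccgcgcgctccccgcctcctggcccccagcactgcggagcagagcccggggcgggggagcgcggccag

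The 8 genes were all expressed in the ventricle, although Lats1 lay just below the median level of the tested rows. In order of mean TPM over the 8 libraries they were Tead2 (189), Yap1 (102), Tead1 (81.01), Amotl2 (65.5), Ajuba (45.8), Wwtr1 (36.9), Lats2 (28.2) and Lats1 (14.2). TPM is per transcript length, so these levels can be set beside each other. Each gene lay above the next in all 8 libraries, and the ranges over the libraries did not overlap for any neighbouring pair. Among all tested rows, Tead2 was at the 95.1st percentile of mean TPM, Yap1 at the 90.5th and Lats1 at the 45.4th. The order was thus the same in knockout and control.

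Between cKO and control, 0 of the 8 genes passed limma's test (adjusted p under 0.05), where 6.4% of 15541 tested rows did, and 2 of the 8 had an unadjusted p under 0.05, where 23.7% of all rows did. The log2 differences, on the log2(TPM + 1) scale as cKO minus control, ran from -0.13 (Yap1) to 0.18 (Ajuba). Their median was 0.05, beside -0.02 over all tested rows, with 5 higher and 3 lower. Standard errors lay between 0.0451 and 0.0675, against a median of 0.0798 over all rows. The 95% intervals of the 8 genes together spanned -0.25 to 0.30, or 0.843-fold to 1.23-fold. After quantile normalization, median-ratio scaling, or rescaling without mitochondrial and globin genes, 1 of the 8 was called, which was Ajuba. Those 3 scalings also changed the balance of calls over all rows, from 336 higher and 658 lower to 383 and 380, 383 and 419, and 388 and 396.

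**Figure D1:**
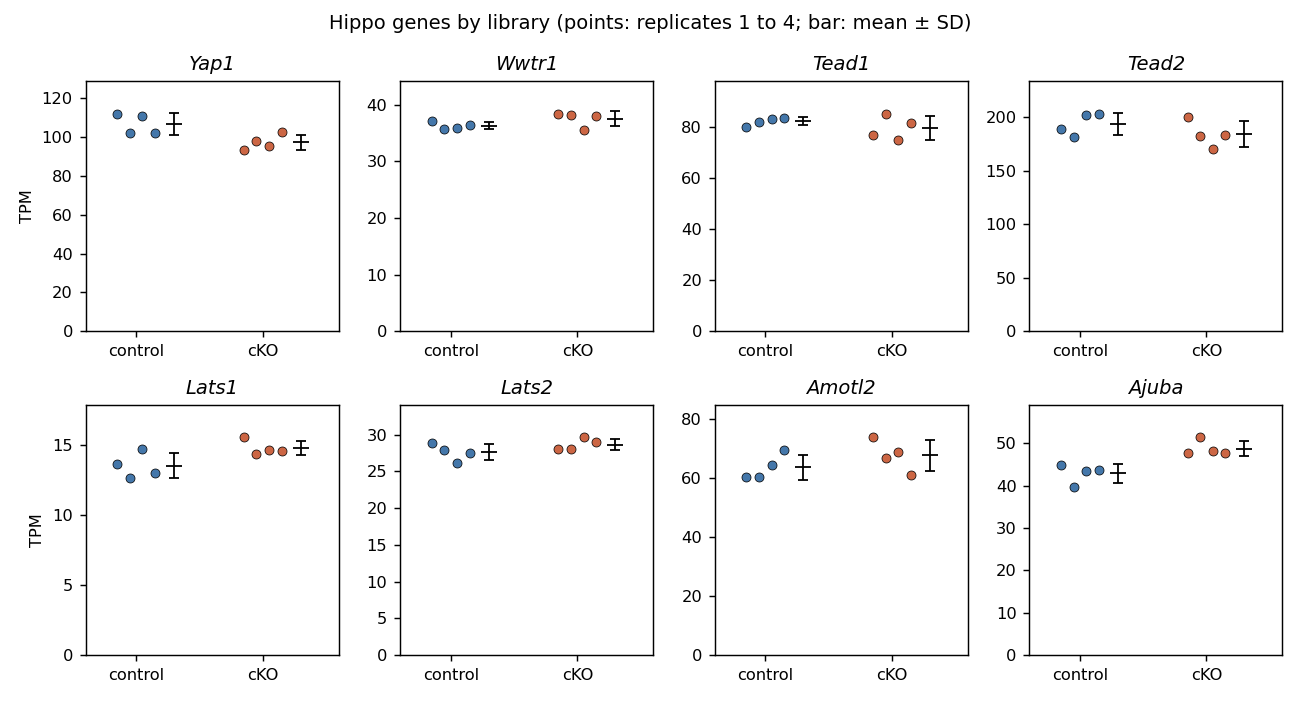
TPM of the 8 genes in each library, with control in blue and cKO in orange; each panel starts at 0, points are replicates 1 to 4 from left to right, and the bar is the mean ± SD. The groups overlap in 7 of the panels, and Ajuba alone has all 4 cKO libraries (47.6 to 51.4 TPM) above all 4 control libraries (39.6 to 44.9 TPM).

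Yap1, the coactivator that carries the pathway's output into the nucleus, is encoded at chr9:7931999-8004638. It stood at 93.1, 97.7, 95.5 and 102.7 TPM in cKO replicates 1 to 4 and at 112, 101.9, 110.8 and 101.99 TPM in control replicates 1 to 4. Control replicates 1 and 3 were the highest, and the groups overlapped because cKO replicate 4 lay just above control replicates 2 and 4. The means were 97.3 ± 4.07 and 106.7 ± 5.52 TPM (SD, n = 4), a log2 difference of -0.13 with a 95% interval of -0.25 to -0.02. It did not pass after adjustment (limma adjusted p = 0.155).

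Wwtr1, the paralog of Yap1 (chr3:57455644-57575910), was nearly level. Its cKO libraries held 38.4, 38.1, 35.5 and 37.9 TPM and its control libraries 37.2, 35.8, 35.9 and 36.4 TPM. Replicate 3 of cKO was the lowest of all 8, and the other 3 cKO libraries lay above every control library. The log2 difference was 0.04 (95% interval -0.06 to 0.15, limma adjusted p = 0.601). Adding Yap1 and Wwtr1, Wwtr1 made up 27.8% ± 1.03 of the pair in cKO and 25.4% ± 0.867 in control (SD, n = 4). The shares did not overlap, at 26.96% to 29.2% against 24.5% to 26.3%. An exact permutation test, two-sided over 70 assignments, gave p = 0.0286, the smallest it can give, and 0.0714 after Benjamini-Hochberg adjustment over the 5 family shares compared.

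Tead2 (chr7:45215792-45233468) and Tead1 (chr7:112679356-112906784) encode factors that bring Yap1 and Wwtr1 to DNA, Tead2 being the form typical of embryonic tissue. Tead2 stood at 201, 182, 171 and 183 TPM in cKO and at 189, 182, 202 and 204 TPM in control, so the groups overlapped across most of their range. Its log2 difference was -0.08 (95% interval -0.21 to 0.06, limma adjusted p = 0.482). For Tead1 the cKO libraries held 77.1, 85.3, 74.9 and 81.7 TPM and the control libraries 80.1, 82.2, 83.2 and 83.7 TPM. Control libraries lay close together inside the wider cKO range, with a log2 difference of -0.05 (95% interval -0.16 to 0.06, limma adjusted p = 0.623). The sign of the Tead1 difference turned to positive after quantile normalization (0.014).

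The other factors of the family were measured too. Tead3 stood at 49.8, 49.6, 52.2 and 45.1 TPM in cKO and at 36.1, 40.5, 41.8 and 48 TPM in control. Control replicate 4 lay above the lowest cKO library, so the groups overlapped, with a log2 difference of 0.24 and a limma adjusted p of 0.109. Without control replicate 4, Tead3 was the 1 gene called in the list of coactivators, TEAD factors and Vestigial-like cofactors, against 0 with all libraries. The symbol Tead3 also has 1 row off the primary chromosomes, which was not used. Tead4 was low, at 6.39 to 7.70 TPM over all libraries. Tead2 thus supplied 57.5% ± 1.91 of TEAD transcripts in cKO and 59.8% ± 1.01 in control (SD, n = 4), with p = 0.0857 by exact permutation and 0.143 after Benjamini-Hochberg adjustment. The summed TEAD level was 320 ± 11.8 TPM in cKO and 325 ± 15.2 TPM in control. Among the Vestigial-like cofactors, which compete with Yap1 for TEAD binding, Vgll4 stood at 44.3 ± 0.737 TPM in cKO and 45.9 ± 1.97 TPM in control (SD, n = 4). Vgll1, Vgll2 and Vgll3 stayed under 1 TPM in every library and were not tested.

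Lats1 (chr10:7681200-7716461) and Lats2 (chr14:57689662-57746212) encode the kinases that phosphorylate Yap1 and Wwtr1. Lats1 was measured at 15.6, 14.4, 14.6 and 14.6 TPM in cKO and at 13.7, 12.7, 14.8 and 13.04 TPM in control. Of the control libraries, replicate 3 alone reached the cKO range, and the log2 difference was 0.12 (95% interval -0.02 to 0.26, limma adjusted p = 0.268). Lats1 overlaps Pcmt1 on the opposite strand, and whether counting used strand is not given in the sources used here, so its values are less certain. The symbol Lats1 also has 1 row off the primary chromosomes, which was not used. Lats2, known also as a p53-induced gene, stood at 28.01, 28.01, 29.6 and 28.97 TPM in cKO and at 28.9, 27.97, 26.2 and 27.6 TPM in control. The groups overlapped, with a log2 difference of 0.05 (95% interval -0.06 to 0.16, limma adjusted p = 0.591). Lats2 made up 65.9% ± 1.16 of Lats transcripts in cKO and 67.1% ± 2.15 in control (SD, n = 4), with p = 0.371 by exact permutation and 0.464 after Benjamini-Hochberg adjustment.

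Amotl2 (chr9:102717091-102733418) encodes an angiomotin that holds Yap1 at cell junctions and is itself a Yap1 target. It stood at 73.7, 66.7, 68.8 and 61.1 TPM in cKO and at 60.1, 60.2, 64.4 and 69.3 TPM in control. High and low libraries occurred in both groups, and the log2 difference was 0.09 (95% interval -0.06 to 0.24, limma adjusted p = 0.474). Among its paralogs, Amotl1 stood at 55.8 ± 1.82 TPM in cKO and 53.6 ± 1.98 TPM in control. Amot, the least abundant, did not overlap between the groups (17.2 to 18.9 TPM in cKO, 13.4 to 16.3 TPM in control) but missed the threshold (log2 difference 0.25, limma adjusted p = 0.0613). The share of Amotl2 among the 3 angiomotins was 47.8% ± 2.21 in cKO and 48.03% ± 2.09 in control (SD, n = 4), with p = 0.743 by exact permutation and after adjustment. The sign of this small difference turned without cKO replicate 4 or control replicate 4 (0.56 and 0.62 percentage points).

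Ajuba (chr14:54567469-54577661) encodes a LIM-domain protein that binds Lats kinases and restrains them. Its cKO libraries held 47.6, 51.4, 48.2 and 47.8 TPM and its control libraries 44.9, 39.6, 43.4 and 43.8 TPM. All 4 cKO libraries lay above all 4 control libraries, as was so for 1 of the 8 genes, while over all tested rows the groups did not overlap in 15.6%, or 5.33% counting rows higher in cKO. The means were 48.7 ± 1.79 and 42.9 ± 2.27 TPM (SD, n = 4), a log2 difference of 0.18 with a 95% interval of 0.06 to 0.30, which missed the threshold (limma adjusted p = 0.0709). Under the 18 alternatives its adjusted p ran from 0.0252 to 0.16, and it passed under the 3 scalings named above.

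The paralogs of Ajuba lay on the other side. Wtip stood at 36.2, 40.6, 49.2 and 48.8 TPM in cKO and at 62.5, 55.9, 54.98 and 49.8 TPM in control, a log2 difference of -0.35 (limma adjusted p = 0.0729). Limd1 stood at 34.9 ± 0.625 TPM in cKO and 37.8 ± 1.31 TPM in control (SD, n = 4, log2 difference -0.11, limma adjusted p = 0.159). Both were lower in cKO without overlap, as were 10.3% of all tested rows, and neither passed. As a share of the 3 LIM proteins, Ajuba made up 38.4% ± 2.29 in cKO and 31.5% ± 1.64 in control (SD, n = 4), and every cKO share (36.2% to 40.5%) lay above every control share (29.8% to 33.5%). By exact permutation p was 0.0286, the smallest possible, and 0.0714 after Benjamini-Hochberg adjustment over 5 shares. With 4 libraries per group, fewer than 3 shares at that smallest p cannot pass 0.05 after adjustment, so the design set this outcome.

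**Figure D2:**
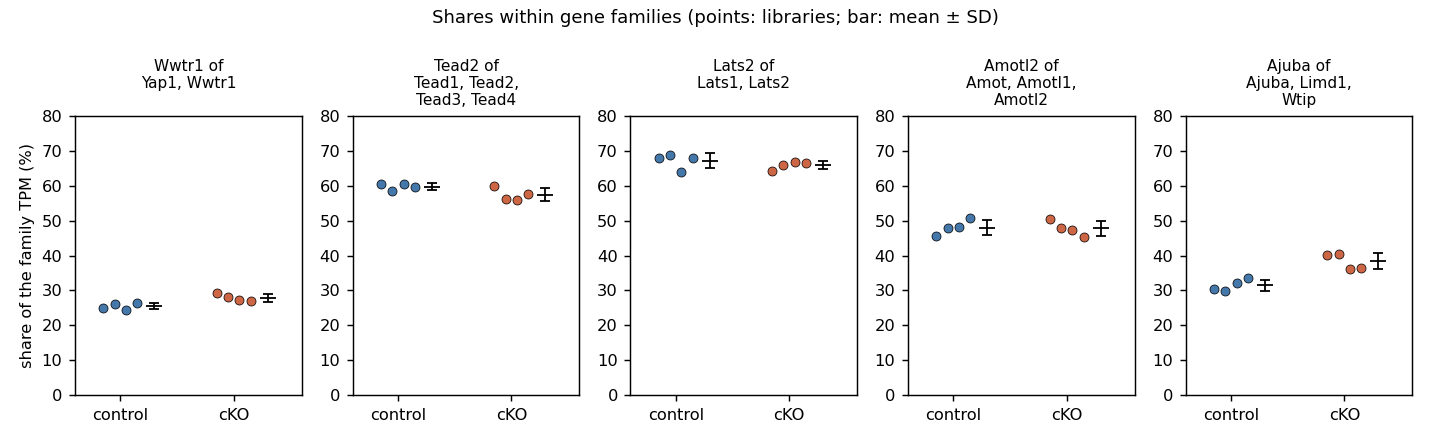
Share of 1 gene in the summed TPM of its family, in percent, for each library (points in replicate order) with the mean ± SD. Ajuba made up 38.4% of its family in cKO against 31.5% in control and Wwtr1 27.8% against 25.4%, both without overlap, while the groups overlap in the other 3 panels.

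Likeness of pattern was measured as the mean absolute difference between profiles over the 8 libraries, each gene centred and divided by its SD. The profiles closest to Yap1 were those of Lrrc59 (0.0705 SD), Samd1 (0.141 SD) and Gngt2 (0.147 SD). Closest to Ajuba were Resf1 (0.185 SD), Angptl2 (0.189 SD) and Fbxl16 (0.209 SD). Of these 6 genes Angptl2 was called, at 66.8 ± 2.71 TPM in cKO and 56.3 ± 2.76 TPM in control (SD, n = 4, limma adjusted p = 0.0256). Over all tested rows 6.4% were called. The profiles include the difference between the groups, so a close profile is not separate evidence of a shared difference, and shared regulation was not tested.

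The other genes of the pathway were counted list by list, beside the 6.4% of all tested rows that were called (2.16% higher, 4.23% lower). In the core kinase list 1 of 7 tested genes was called, lower in cKO, with a median log2 difference of 0.01. This was Sav1, the adaptor of Stk3 and Stk4, at 32.6, 33.2, 33.4 and 35.6 TPM in cKO and 40.5, 38.6, 38.03 and 39.01 TPM in control. The groups did not overlap, with a log2 difference of -0.21 (SE 0.0470, limma adjusted p = 0.0327). The call was kept under 6 of 18 alternatives. Among the alternatives that lost it were the 3 other scalings, the fit without a variance trend, and leaving out any single library other than cKO replicate 4, where its adjusted p ranged from 0.0666 to 0.085. Stk3 (29.6 ± 1.67 and 31.3 ± 2.99 TPM), Mob1a (48.1 ± 2.16 and 46.99 ± 2.83 TPM) and Mob1b (35.8 ± 1.61 and 35.6 ± 3.54 TPM, each in cKO and control, SD, n = 4) did not pass.

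Above the kinases, 1 of 19 tested genes was called, higher in cKO, with a list median of 0.01. That is 5.26%, beside 6.4% of all tested rows. Fat1, an atypical cadherin of the cell surface that feeds into the pathway, held 51.03, 54.6, 56.5 and 48.7 TPM in cKO and 43.2, 44.6, 43.2 and 43.6 TPM in control. Control libraries were tightly grouped below all cKO libraries, with a log2 difference of 0.26 (SE 0.0532, limma adjusted p = 0.0221). Fat1 kept its call under 13 of 18 alternatives and lost it, among others, without cKO replicate 3 (adjusted p = 0.0519), control replicate 1 (0.0586) or control replicate 3 (0.0635), and with no filter on low values (0.0519). The cadherins Fat4 and Dchs1, which bind each other between cells, had larger differences (0.41 and 0.38) that did not pass (limma adjusted p = 0.0802 and 0.0833). Nf2, the scaffold that brings Lats kinases to the membrane, was the second most abundant tested gene of this list after Map4k4. It stood at 58.02 ± 2.92 TPM in cKO and 64.3 ± 0.886 TPM in control (SD, n = 4) with no overlap (limma adjusted p = 0.0914). Map4k4, a kinase that can activate Lats1 and Lats2, stood at 94.7 ± 6.83 and 90.95 ± 2.09 TPM.

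Among LIM proteins and subunits of the STRIPAK phosphatase, which holds Stk3 and Stk4 inactive, 0 of 13 were called, beside 6.4% of all rows, and 7 had an unadjusted p under 0.05, beside 23.7% of all rows. The list median was -0.08, with 9 lower. Its most abundant genes were the phosphatase subunits Ppp2ca (295 ± 41.1 TPM in cKO, 370 ± 23.8 TPM in control, SD, n = 4, limma adjusted p = 0.0643) and Ppp2r1a (250.1 ± 12.1 and 273 ± 11.02 TPM, limma adjusted p = 0.168). Under each of the 3 other scalings Ajuba was called in this list, and without cKO replicate 4 the 1 gene called was Ppp2ca, lower in cKO.

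Of 15 genes whose products bind or turn over Yap1, 2 were called, 1 in each direction, with a list median of 0.00, beside 6.4% of all rows called. Under each of the 3 other scalings 2 were called higher (Ptpn14 and Amot) and 0 lower, and with a minimum mean of 5 TPM the same 2 higher and Ywhah lower. Ptpn14, a phosphatase that binds Yap1 and holds it outside the nucleus, is counted among Yap1 targets as well. It held 31.7, 29.95, 33.6 and 28.2 TPM in cKO and 22.2, 20.7, 22.5 and 23.9 TPM in control. Every cKO library lay above every control library, and the log2 difference was 0.45 (SE 0.0660, limma adjusted p = 0.00654). Under the 18 alternatives this call was kept each time, with differences from 0.39 to 0.49 and adjusted p from 0.00437 to 0.0296. Ywhah, one of the 14-3-3 proteins that retain phosphorylated Yap1 in the cytoplasm, was lower in cKO (273 ± 13.9 against 312 ± 8.42 TPM, SD, n = 4, log2 difference -0.19, limma adjusted p = 0.0448). Its call was kept under 5 of 18 alternatives. Among the alternatives that lost it were the 3 other scalings, the fit without a variance trend, the one with no filter, and leaving out any library other than cKO replicate 2. The most abundant 14-3-3 gene, Ywhae, stood at 766 ± 52.9 TPM in cKO and 836 ± 25.5 TPM in control and did not pass (limma adjusted p = 0.214).

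**Figure D3:**
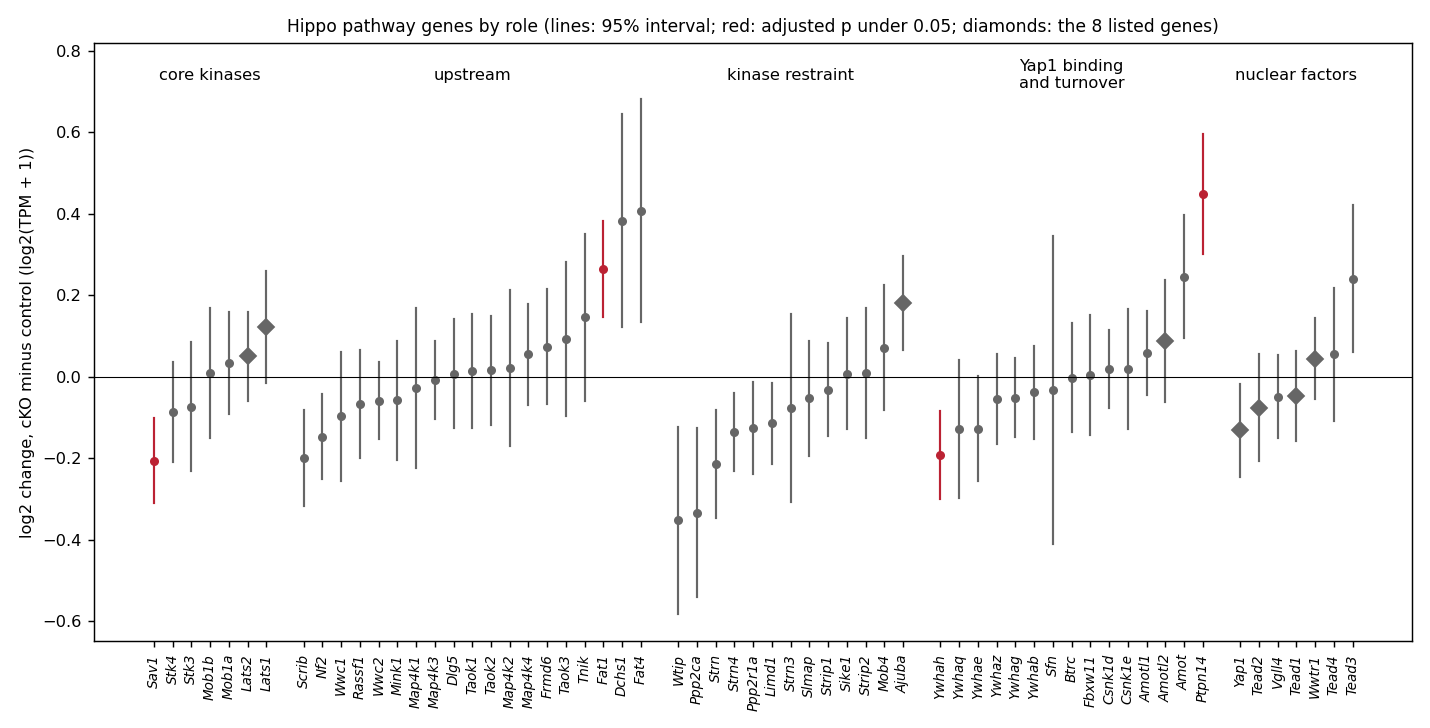
Log2 difference, cKO minus control on the log2(TPM + 1) scale, of the tested pathway genes grouped by role; lines are 95% intervals, red marks a limma adjusted p under 0.05, and diamonds mark the 8 listed genes. Red points are Sav1 (-0.21), Fat1 (0.26), Ywhah (-0.19) and Ptpn14 (0.45), and no diamond is red.

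Genes that Yap1 and Wwtr1 switch on were examined next. A signature of 22 YAP/TAZ targets, derived elsewhere in cancer cells, had 21 tested genes, of which 7 were called higher and 1 lower in cKO. Over all tested rows 2.16% were called higher and 4.23% lower. The median log2 difference of the signature was 0.22, beside -0.02 over all rows, and 16 of 21 were higher. The list shares Amotl2 and Lats2 with the 8 genes, neither of which passed. Without them 8 of 19 were called. The count depended on each library: it was 2 without cKO replicate 1, cKO replicate 3 or control replicate 2, and 3 without cKO replicate 2, control replicate 1 or control replicate 3. Without cKO replicate 4 or control replicate 4 it was 4. With no filter on low values, which adds rows to the adjustment, 1 was called, and without a variance trend 3 were.

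**Figure D4:**
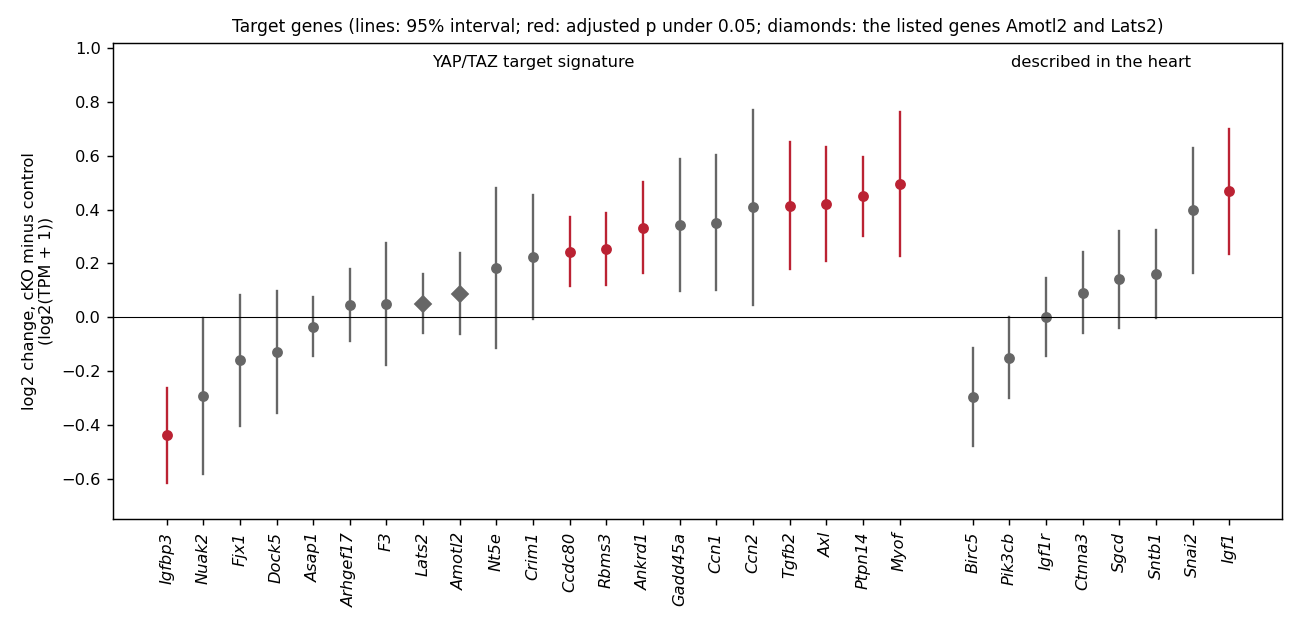
Log2 difference, cKO minus control on the log2(TPM + 1) scale, of tested target genes with 95% intervals; red marks a limma adjusted p under 0.05 and diamonds the listed genes Amotl2 and Lats2. In the signature 7 red genes lie above 0, from Ccdc80 (0.24) to Myof (0.50), and Igfbp3 (-0.44) lies below it.

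Ankrd1, a cardiomyocyte protein of sarcomere and nucleus that responds to stretch, was the most abundant target. It held 1016, 1017, 1141 and 997 TPM in cKO and 747, 878, 777 and 916 TPM in control. All cKO libraries lay above all control libraries, with a log2 difference of 0.33 (SE 0.0763, limma adjusted p = 0.0335). Axl, a receptor tyrosine kinase, held 61.3, 61.3, 72.95 and 65.1 TPM in cKO and 43.2, 42.5, 53.2 and 55.4 TPM in control (log2 difference 0.42, limma adjusted p = 0.0322). Tgfb2, a growth factor ligand of the TGF-β family needed for cushion formation, held 37.2, 43.1, 40.7 and 46.2 TPM in cKO and 35.4, 24.7, 31.7 and 33.3 TPM in control (log2 difference 0.41, limma adjusted p = 0.0471). Axl and Tgfb2 likewise did not overlap between the groups.

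Myof, a ferlin of the plasma membrane, was called from low levels of 8.37 ± 0.542 TPM in cKO and 5.73 ± 1.32 TPM in control (SD, n = 4, log2 difference 0.50, limma adjusted p = 0.0401). Rbms3, an RNA-binding protein, stood at 12.7 ± 0.295 and 10.5 ± 0.628 TPM (log2 difference 0.25, limma adjusted p = 0.0382). Ccdc80, a secreted matrix protein and the third most abundant gene of the signature, stood at 103.6 ± 5.55 and 87.3 ± 5.27 TPM (log2 difference 0.24, limma adjusted p = 0.0370). Igfbp3, a secreted binding protein for insulin-like growth factors, was the 1 called lower, at 23.98, 22.04, 23.4 and 21.8 TPM in cKO and 32.3, 26.6, 35.1 and 31.5 TPM in control (log2 difference -0.44, limma adjusted p = 0.0141). The Igfbp3 call was kept under 17 of 18 alternatives. Calls of Ankrd1, Axl, Tgfb2, Myof, Rbms3 and Ccdc80 were kept under 7 to 11 of 18, and all 6 stayed higher in cKO under each. When single libraries were left out, Tgfb2 and Rbms3 lost the call in all 8 fits, Myof and Ccdc80 kept it in 1 of 8, Ankrd1 in 2 and Axl in 3.

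The classical targets Ccn1 and Ccn2, matricellular proteins formerly named Cyr61 and Ctgf, did not pass. Ccn1 held 67.96, 76.04, 71.5 and 77.6 TPM in cKO and 51.8, 65.96, 46.2 and 67.5 TPM in control. Its groups did not overlap by a narrow margin, with a log2 difference of 0.35 (95% interval 0.10 to 0.60, limma adjusted p = 0.0953). Ccn2 held 117.5, 129, 168 and 128.6 TPM in cKO and 80.1, 108.8, 87.2 and 137.7 TPM in control. Control replicate 4 reached into the cKO range, and the log2 difference was 0.41 (95% interval 0.05 to 0.77, limma adjusted p = 0.164). Control libraries spread widely for both genes, as their SDs of 10.5 and 25.9 TPM show.

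Of genes described as Yap1 targets in the heart, 1 of 8 tested was called, higher in cKO, beside 2.16% of all rows. Igf1, a growth factor, stood at 25.8 ± 2.23 TPM in cKO and 18.5 ± 2.92 TPM in control (SD, n = 4, log2 difference 0.47, limma adjusted p = 0.0310), and its call was kept under 10 of 18 alternatives. It was lost without cKO replicates 1, 3 or 4 and without control replicates 1, 2 or 3, where the adjusted p lay between 0.0577 and 0.0769. Snai2, a transcription factor of mesenchymal transition, was not called (log2 difference 0.40, limma adjusted p = 0.0521). Birc5, a mitotic survival protein, lay in the other direction, at 91.3 ± 10.7 and 112 ± 7.02 TPM (log2 difference -0.30, limma adjusted p = 0.0605). Igf1r, the receptor of Igf1, was level at 32.98 ± 2.11 and 32.97 ± 2.24 TPM.

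Mesenchymal and epicardial markers included genes called higher in cKO, as the targets did. Over all tested rows 2.16% were called higher and 4.23% lower, and 23.7% had an unadjusted p under 0.05. Of 9 mesenchymal markers 4 were called, all higher, and their sum was 871 to 1060 TPM in cKO and 585 to 762 TPM in control. Of 9 epicardial markers 5 were called, all higher, with sums of 607 to 695 and 517 to 585 TPM. The most abundant genes of the epicardial list were Tbx20, Upk3b and Krt19 (means of 153, 141 and 108 TPM over all libraries), of which Upk3b alone was called. The level of the sum thus rests in large part on markers that were not called. Its difference between the groups does so less. Means in cKO and control were 159 and 124 TPM for Upk3b, 159 and 148 TPM for Tbx20, and 111 and 104 TPM for Krt19. Whether each gene of the list is confined to the epicardium was not tested. Of 9 endocardial and endothelial markers 0 were called, with sums of 806 to 912 and 751 to 801 TPM, and 4 had an unadjusted p under 0.05. Of 7 tested macrophage markers 0 were called, with sums of 74.6 to 125 and 69.9 to 97.7 TPM over all 8 markers, and 1 had an unadjusted p under 0.05. Of 7 erythroid markers 0 were called and 0 had an unadjusted p under 0.05, with sums of 1352 to 2910 and 1521 to 5565 TPM, the highest in control replicate 4. Of 3 tested neuronal markers 1 was called, Nefl, lower in cKO at 2.49 ± 0.226 against 3.93 ± 0.479 TPM (SD, n = 4, limma adjusted p = 0.0219). No marker of these lists other than Neurod6 was at 0 in every library. Of 12 cardiomyocyte markers 1 was called, the transcription factor Nkx2-5, lower in cKO (log2 difference -0.48, limma adjusted p = 0.0453). Of these 12, 11 were lower in cKO by the sign of the difference, as were 8678 of the 15541 tested rows, and 3 had an unadjusted p under 0.05. The same 3 (Myh6, Tnni1 and Nkx2-5) were lower without overlap, as were 10.3% of all tested rows. The part of these cell types in the differences of Ajuba and of the targets was not tested. In bulk tissue, more cells of a type and more RNA per cell cannot be told apart.

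**Figure D5:**
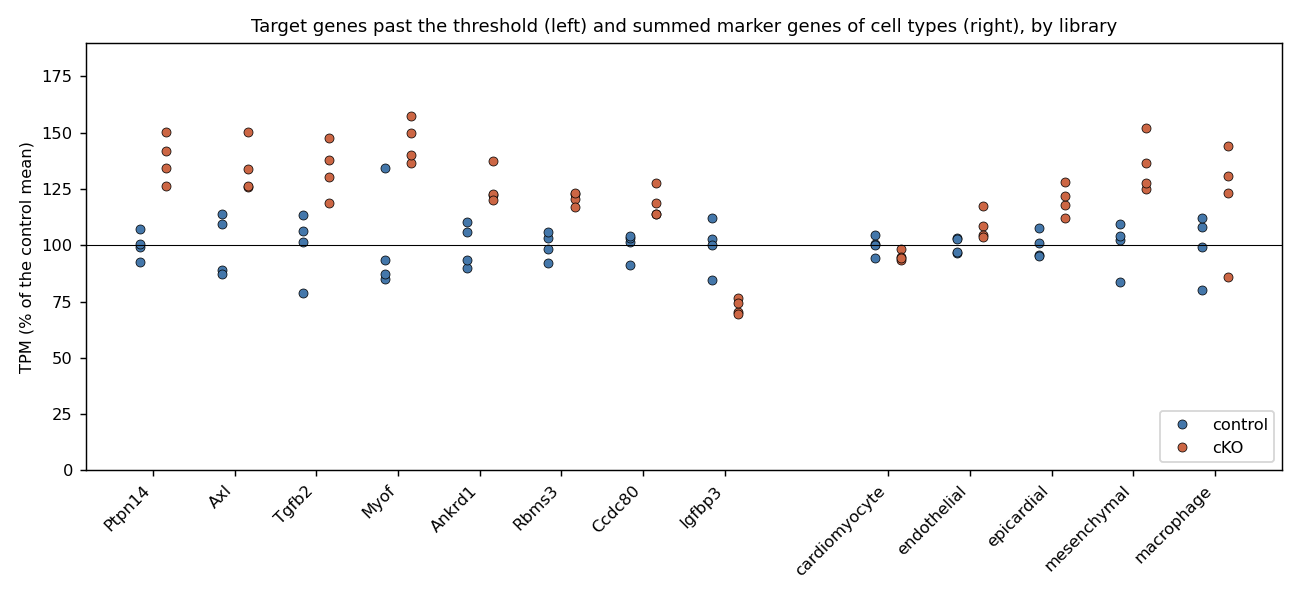
TPM in each library as a percentage of the control mean, for the 8 signature genes past the threshold (left) and for summed markers of 5 cell types (right), with control in blue and cKO in orange. The 4 cKO libraries lie above the 4 control libraries for 7 targets and for the endothelial, epicardial and mesenchymal sums, and below them for Igfbp3. Over all tested rows 5.33% were higher and 10.3% lower without overlap. The 8 genes are shown because they passed the test between the groups, so their separation is not separate evidence.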

How the data were processed

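Gene expression was measured by RNA sequencing in 8 libraries, 4 cKO and 4 control, with groups and replicate numbers taken from the sample titles. The authors deposited TPM values, 1 column per library, with the same total in each. The submitters' processing notes name Trim Galore 0.6.7, HISAT2 2.2.1, StringTie 2.2.1, featureCounts and DESeq2 and the build GRCm38, with no role given. The annotation and the use of strand are not given in the sources used here. Of 49593 rows matched to RefSeq (GRCm38.p6) by symbol and chromosome, 49592 had the same start and end.

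Groups were compared with limma 3.58.1 (R 4.3.3) on log2(TPM + 1), with group as the only term, eBayes with a trend, two-sided tests and Benjamini-Hochberg adjustment over the 15541 rows whose mean reached 1 TPM. The +1 understates changes of low genes. Family shares were tested by exact permutation. Alternatives were pseudocounts of 0.1 and 5, no filter (rows with any value above 0), a minimum mean of 5 TPM, 3 other scalings, no trend, array weights, a replicate block and leaving out each library. The fit was tested on simulated data with 200 changed genes. It recovered 17.9% of log2 changes of 0.25, 73.1% of those of 0.5 and 100% of those of 1, and 7.3% of its calls were false. The real fit called 994 rows, more than were changed here, so its cut-off on the unadjusted p was less strict. The 8 genes also had smaller standard errors (0.0451 to 0.0675) than the median row (0.0798). The recovered shares therefore do not give the chance of detecting such changes in the 8 genes. All differences of the 8 genes were smaller than 0.25, so real changes of their size could be missed. Named genes were the 8 members, Rps19bp1, Ccn1, Ccn2, paralogs, called genes of the lists, the 2 most abundant of each list and 3 of closest pattern for Yap1 and Ajuba. Members and lists were chosen with earlier results of these data known. A few further genes (Stk3, Mob1b, Fat4, Dchs1, Vgll1 to Vgll4, Snai2, Camk2a, Neurod6, Nefl, Tubb3, Nkx2-5, Myh6, Tnni1, Crim1, Tbx20, Upk3b, Krt19) were named after their values were seen. Figures were drawn with matplotlib 3.10.9.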

Additional observations from a re-analysis of the deposited data

Results flagged for a closer look

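In 58 groups of 4 libraries (29 genes in cKO and in control), 6 held a library whose gap to the nearest other was too large a part of the group's range by Dixon's test at the 95% level. Chance flags about 1 in 20. Among the 8 Hippo genes, Wwtr1 was low in cKO replicate 3 (35.5 TPM, the others 37.9 to 38.4) and Ajuba was high in cKO replicate 2 (51.4 TPM, the others 47.6 to 48.2). Without cKO replicate 2 the log2 difference of Ajuba was 0.16 (limma adjusted p = 0.14), and without cKO replicate 3 that of Wwtr1 was 0.07. The LIM protein gene Limd1 was high in control replicate 1 (39.8 TPM, the others 37.05 to 37.3). Myof was also high there (7.68 TPM, the others 4.88 to 5.35), and its log2 difference was 0.62 without that library. Ankrd1 was high in cKO replicate 3 (1141 TPM, the others 997 to 1017) and Ywhah in control replicate 2 (325 TPM, the others 307 to 308).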

How the results depend on the processing

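Yap1, Wwtr1, Tead2, Lats1, Lats2 and Amotl2 kept their direction and stayed outside the threshold under all 18 alternatives, and Rps19bp1 kept its call (-1.49 to -1.18). Tead1 turned to 0.014 after quantile normalization. Ajuba passed after quantile normalization (0.23), median-ratio scaling (0.21) and rescaling without mitochondrial and globin genes (0.22), so 1 of the 8 genes was called there, and 1 in the kinase-restraint list. Under those 3 scalings the core-kinase count was 0 and the heart-target count 2. With no filter the counts were 0 upstream of the kinases, 1 for Yap1 binding and turnover, 1 for the signature, 0 for heart targets and 347 over all rows. Without a variance trend they were 0 for core kinases, 1 for Yap1 binding and turnover, 3 for the signature, 0 for heart targets and 609 over all rows. With a minimum mean of 5 TPM, 2 upstream genes and 2 heart targets were called. Array weights gave 2 upstream, and a pseudocount of 5 gave 2 heart targets. Leaving out single libraries, which leaves fewer samples, gave counts of 0 for the 8 genes, 0 to 1 for core kinases, 0 to 2 upstream, 0 to 1 for kinase restraint, 1 to 2 for Yap1 binding and turnover, 0 to 1 for nuclear factors, 2 to 4 for the signature, 0 to 2 for heart targets and 388 to 936 over all rows. The Amotl2 share difference ran from -1.22 to 0.62 percentage points, positive without cKO replicate 4 (0.56) or control replicate 4 (0.62). With a replicate block the counts were 0 for core kinases, 0 upstream, 1 for Yap1 binding and turnover, 3 for the signature and 420 over all rows, and limma adjusted p was 0.0906 for Sav1, 0.0590 for Fat1 and 0.0768 for Ywhah. Same-numbered libraries share only a number: the correlations of their deviations from group means ran from -0.0891 to 0.0674, those of other pairs from -0.128 to 0.122, and not every library correlated best with its own number. The cause of the other shifts was not tested. TPM gives no depth, so counting error is unknown.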
